A study of Mus musculus with 50 samples.

Results

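The suppressors of cytokine signalling (SOCS) are a family of intracellular proteins, and the 8 mouse genes that encode them (Cish and Socs1 to Socs7) were taken by symbol from the 53700 genes counted in each library. Poly-A RNA was sequenced from sorted CD45int CD11b+ hippocampal microglia of 50 male C57BL/6J mice, 1 library per mouse. Early-life stress (ELS) was limited bedding and nesting material from P2 to P9, and control (CTR) litters had standard housing. The P9 groups, 12 P9-CTR and 13 P9-ELS mice, were killed at 9 days of age without an injection. The P200 groups were 7 CTR-PBS, 6 ELS-PBS, 7 CTR-LPS and 5 ELS-LPS mice, which at 200 days of age received PBS or lipopolysaccharide (LPS, a bacterial outer-membrane component that activates Toll-like receptor 4) at 1 mg/kg into the peritoneum and were killed 3 h later. Whole nests were assigned to ELS or CTR, so nest and condition overlap, and mice of 4 to 5 nests made up each group. Age cannot be told apart from cohort, injection and the Percoll step that only adult tissue received.

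Cytokine receptors without kinase activity of their own signal through Janus kinases (JAKs), which phosphorylate STAT transcription factors. STAT target genes include several SOCS genes, whose proteins bind activated receptors or JAKs through an SH2 domain, block them or recruit a ubiquitin ligase through the SOCS box, and so close a negative feedback loop. CIS (encoded by Cish), SOCS1, SOCS2 and SOCS3 are the members best known as cytokine-induced feedback inhibitors, while SOCS4 to SOCS7 have been linked more to receptor tyrosine kinases such as the EGF and insulin receptors.

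STAT dimers bind the palindrome TTCNNNGAA, and this motif was searched for in GRCm39 from 1000 bases before to 1000 bases after the start of each gene's Ensembl canonical transcript in GENCODE vM39. Both strands read the same because the motif is its own reverse complement in the fixed letters. Among 21748 protein-coding genes, 45.2% held at least 1 match in this window, 13.1% at least 2, 2.81% at least 3 and 0.455% at least 4. Cish held 5 matches, Socs2 held 3, Socs3 held 2, Socs1, Socs4 and Socs7 held 1 each, and Socs5 and Socs6 held none. The stretches below hold all matches of Cish, Socs2, Socs3 and Socs1, the 4 genes with the largest log2 fold changes with LPS in CTR mice, with each match in capitals. Cish has 2 pairs and 1 lone match, Socs2 has 1 pair and 1 lone match, and the matches of Socs3 and Socs1 are lone.
Cish, chr9:107172715-107172743, plus strand: cctacccataTTCCAAGAAactggcttct
Cish, chr9:107173854-107173882, plus strand: agttTTCCTGGAAagTTCTTGGAAatctg
Cish, chr9:107173962-107173990, plus strand: gTTCTAGGAAgatgaggcTTCCGGGAAgg
Socs2, chr10:95252761-95252789, minus strand: cggaTTCCTGGAAagTTCCTGGAAagcgg
Socs2, chr10:95253788-95253816, minus strand: agaacagtatTTCAAAGAAaaatggttat
Socs3, chr11:117860328-117860356, minus strand: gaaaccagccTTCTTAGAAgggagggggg
Socs3, chr11:117860055-117860083, minus strand: ggccgggcagTTCCAGGAAtcggggggcg
Socs1, chr16:10603835-10603863, minus strand: gctagccgggTTCCAAGAAgggtcgagat

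The first matches of the Cish pairs lay 633 and 738 bases after the canonical start and its lone match 500 bases before it, the first match of the Socs2 pair 187 bases after it and its lone match 834 bases before it, those of Socs3 lay 223 bases before and 50 bases after it, and that of Socs1 22 bases after it. In 250 bases before the start of Socs1, which held no TTCNNNGAA, a form of the motif with a wider spacer, TTCNNNNGAA, matched 3 times. The same window of Cish held 1 such match, and those of the other members held 0. Exons of the gene's other transcripts cover 219 of these 250 bases in Socs2, 173 in Socs3 and 217 in Socs5, against 0 in Socs1 and Cish. Positions before and after the start thus hold for the canonical transcript only. At least 1 match to TTCNNNNGAA was present in 5.90% of the same windows of all protein-coding genes, and 3 or more in 2 genes, Socs1 included. The Socs1 window is given with the 3 matches in capitals because Socs1 was the member with the widest gap between CTR-PBS and ELS-PBS mice. A match is a description of the letters and not of binding.
Socs1, chr16:10603876-10604125, minus strand: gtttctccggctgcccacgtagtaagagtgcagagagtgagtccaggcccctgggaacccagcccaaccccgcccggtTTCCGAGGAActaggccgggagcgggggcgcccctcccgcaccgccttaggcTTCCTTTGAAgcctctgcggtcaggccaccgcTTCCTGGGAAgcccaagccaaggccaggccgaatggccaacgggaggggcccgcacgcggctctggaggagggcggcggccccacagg

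Each library held 5152838 to 42231258 counts. Levels are given as CPM, counts scaled to a common library size normalized with trimmed means of M-values. A summed level of 59060 to 77120 CPM for 8 microglia markers was measured in each P200 mouse, against at most 11.0 CPM for monocyte, 4.83 CPM for neutrophil and 0.2196 CPM for T cell markers. Bulk RNA does not tell fewer cells of a type from less RNA per cell. In 3 libraries the number of genes with a count was low (12854 in P200_1.1_CTR_PBS, 12482 in P9_19.3_ELS and 15731 in P9_19.2_ELS, mice being named by their deposited titles), and Cish was at 0 in all 3, so values without them are given where a call depends on them. All 8 members passed the filter of at least 1 CPM in more than 2 mice, which 16696 genes passed.

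Cish, Socs2 and Socs3 rose steeply 3 h after LPS in both conditions. In CTR mice 5 of 8 members rose (Cish, Socs1, Socs2, Socs3 and Socs4) and 0 fell, beside 8.73% of all genes called higher and 6.2% called lower. In ELS mice 3 members rose (Cish, Socs2 and Socs3) and 1 fell (Socs6), beside 7.4% of all genes called higher and 4.94% called lower. A call was an adjusted p (FDR) under 0.05 in edgeR's quasi-likelihood test. Where groups are said below not to overlap, the share of all genes that do likewise was not counted. The median log2 fold change of the 8 members was 1.60 in CTR and 0.83 in ELS mice, against 0.0047 and -0.04 for all tested genes.

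**Figure D1:**
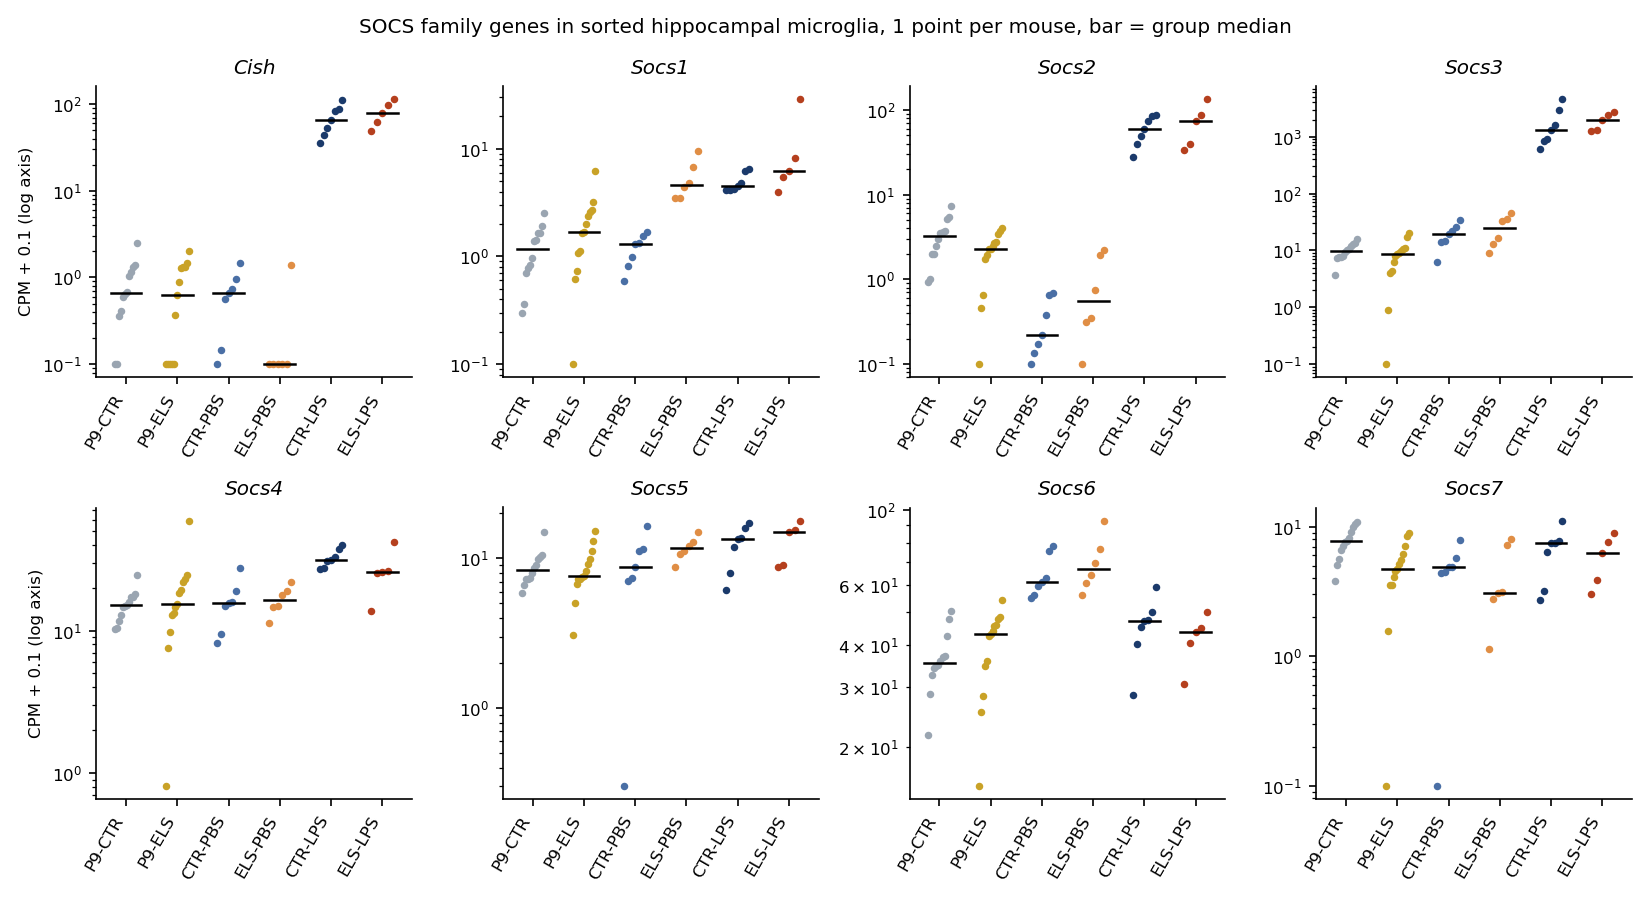
CPM plus 0.1 (log axis) of the 8 SOCS family genes in each of the 50 mice, by group, with a bar at the group median. Cish, Socs2 and Socs3 separate the LPS-injected from the PBS-injected mice without overlap, and Socs1 separates CTR-PBS (at most 1.57 CPM) from ELS-PBS mice (at least 3.41 CPM). The Socs1 difference was not called (adjusted p = 0.0571 in edgeR's quasi-likelihood test). The share of all genes that separate these groups was not counted.

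Socs3, which inhibits JAKs bound to receptors that contain gp130, had the highest level per kilobase of transcript in the family after LPS. Its level was 6.13 CPM in the lowest, 19.6 in the median and 34.3 in the highest CTR-PBS mouse, and 613.5, 1292 and 4556 CPM in the CTR-LPS mice. In the ELS-PBS mice these values were 9.09, 24.9 and 44.5 CPM, and the 5 ELS-LPS mice had 1275, 1295, 1927, 2451 and 2756 CPM. Each LPS-injected mouse was above each PBS-injected mouse, by more than an order of magnitude. The log2 fold change was 6.55 ± 0.56 (SE, adjusted p = 1.45e-13) in CTR and 6.26 ± 0.60 (SE, adjusted p = 8.67e-12) in ELS mice. The LPS groups themselves varied, with an SD of 1428 CPM around a mean of 1823 CPM in CTR-LPS (n = 7) and of 668.3 around 1941 CPM in ELS-LPS (n = 5).

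Cish, whose product competes with STAT5 at its receptor docking sites, was close to the detection limit without LPS. CTR-PBS mice had 0 to 1.35 CPM with a median of 0.556 CPM, and 5 of the 6 ELS-PBS mice had no count, which allows up to 0.107 to 0.163 CPM each at 3 counts, while P200_2.1_ELS_PBS had 1.297 CPM. After LPS it reached 35.3, 66.3 and 112.5 CPM in the lowest, median and highest CTR-LPS mouse. The ELS-LPS mice had 49.3, 62.9, 78.5, 97.2 and 113.7 CPM. The PBS and LPS groups did not overlap in either condition. The log2 fold change was 6.96 ± 0.89 (SE, adjusted p = 2.31e-08) in CTR mice. In ELS mice it was 8.24 ± 1.03 (SE, adjusted p = 1.58e-08), a size that rests on P200_2.1_ELS_PBS. Without that mouse the ELS-PBS group had no count, and the fitted value of 13.73 then depended on the prior count and was no measure of size.

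Gm17041, a long noncoding RNA gene on the opposite strand that shares 479 exon bases with Cish, had a median of 0.0397 CPM in CTR-PBS and 20.24 CPM in CTR-LPS mice. In ELS mice its median went from 0 to 25.7 CPM. Whether the counting used strand is not stated in the sources, so reads of the shared bases cannot be assigned to one gene with certainty. Opposite-strand exons overlapped 6 of the 8 members, all but Socs4 and Socs7. The share of such reads in the member levels was not tested.

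Socs2, known as a brake on growth hormone receptor signalling, rose from the lowest level per kilobase of transcript that any member had in CTR-PBS mice. It was at 0, 0.119 and 0.584 CPM in the lowest, median and highest CTR-PBS mouse and at 27.9, 59.97 and 86.7 CPM in the CTR-LPS mice. The ELS-PBS mice had 0, 0.449 and 2.12 CPM, and the ELS-LPS mice 33.8, 39.1, 73.4, 87.4 and 133.4 CPM. No PBS-injected mouse came near the lowest LPS-injected mouse. The log2 fold change was 7.95 ± 0.72 (SE, adjusted p = 1.04e-12) in CTR and 6.48 ± 0.71 (SE, adjusted p = 5.14e-10) in ELS mice. The long noncoding RNA gene 5730420D15Rik, which shares 689 exon bases with Socs2 on the opposite strand, had at most 0.0402 CPM in P200 mice with PBS, 1.83 to 3.35 CPM in CTR-LPS and 0.927 to 1.58 CPM in ELS-LPS mice.

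Socs1, which inhibits JAKs directly and restrains interferon signalling, had levels that did not overlap between the PBS-injected groups. That difference was not called (adjusted p = 0.0571 in edgeR's quasi-likelihood test). CTR-PBS mice had 0.496, 1.19 and 1.57 CPM (lowest, median and highest) and CTR-LPS mice 3.99, 4.37 and 6.33 CPM, without overlap, a log2 fold change of 2.15 ± 0.54 (SE, adjusted p = 0.00351). ELS-PBS mice had 3.41, 4.50 and 9.51 CPM. The ELS-LPS mice had 3.89, 5.33, 6.08, 8.04 and 28.7 CPM, so that all but the highest, P200_20.1_ELS_LPS, lay within the ELS-PBS range. The log2 fold change in ELS mice was 0.96 ± 0.58 (SE, adjusted p = 0.318), and 0.13 without that mouse. The difference between the LPS responses of ELS and CTR mice was itself -1.19 ± 0.79 (SE, log2, adjusted p = 0.913), with a 95% confidence interval from -2.77 to 0.40.

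Of the members linked to receptor tyrosine kinases, Socs4 rose in CTR mice, from 8.14 to 27.4 CPM (median 15.5) with PBS to 27.1 to 39.9 CPM (median 31.1) with LPS, a log2 fold change of 1.04 ± 0.35 (SE, adjusted p = 0.0368). This call was lost when any of 8 of the 14 mice was left out (P200_1.1_CTR_PBS, P200_5.1_CTR_PBS, P200_5.2_CTR_PBS, P200_8.1_CTR_PBS, P200_18.2_CTR_PBS, P200_1.2_CTR_LPS, P200_8.3_CTR_LPS and P200_15.2_CTR_LPS), with adjusted p up to 0.0808. In ELS mice Socs4 was at 11.3 to 21.7 CPM with PBS and at 13.6, 25.3, 25.8, 26.2 and 41.8 CPM with LPS, a log2 fold change of 0.69 ± 0.40 (SE, adjusted p = 0.288). Without the 3 libraries with few detected genes, Socs4 also passed the threshold in ELS mice (adjusted p = 0.0436). None of these libraries is from a P200 ELS mouse, and 3532 of all genes were then called in ELS mice, against 2059 with all libraries.

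Socs6, which binds receptor tyrosine kinases such as KIT, was the member that moved down. ELS-PBS mice had 56.0, 66.8 and 92.8 CPM, and the ELS-LPS mice 30.4, 40.4, 43.6, 44.7 and 50.0 CPM, all below the lowest ELS-PBS mouse. It fell by 0.74 ± 0.21 on the log2 scale (SE, adjusted p = 0.012). In CTR mice the level was 54.95 to 78.2 CPM with PBS and 28.2 to 59.0 CPM with LPS, with an overlap made by 1 CTR-LPS mouse, and the log2 fold change of -0.50 ± 0.18 (SE, adjusted p = 0.0548) lay just outside the threshold. With the 3 libraries with few detected genes left out it was -0.52 (adjusted p = 0.0122), and 3301 of all genes were called, against 2493 with all libraries.

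Socs5 and Socs7 passed the threshold in neither condition. Socs5, linked to EGF receptor turnover, had medians of 8.61 CPM in CTR-PBS and 13.4 CPM in CTR-LPS mice (log2 fold change 0.47, 95% confidence interval -0.24 to 1.19). Its medians were 11.6 and 14.8 CPM in ELS-PBS and ELS-LPS mice (0.17, -0.64 to 0.97). Socs7 had medians of 4.75 and 7.38 CPM in CTR-PBS and CTR-LPS mice (0.53, -0.48 to 1.54) and of 3.00 and 6.12 CPM in ELS-PBS and ELS-LPS mice (0.50, -0.64 to 1.64).

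**Figure D2:**
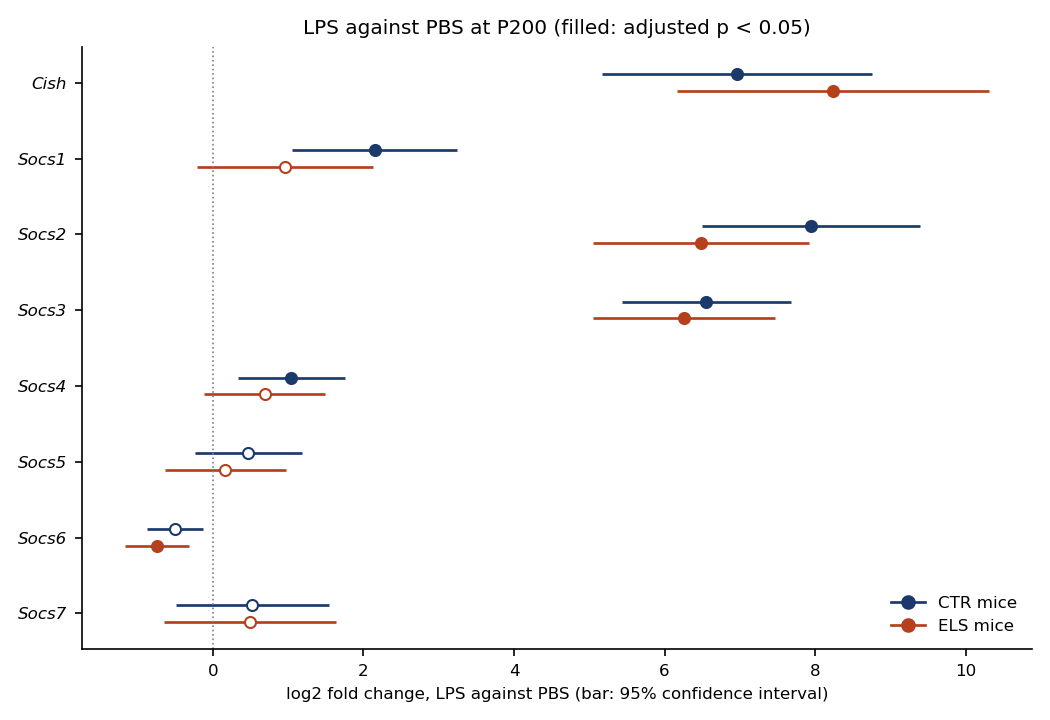
Log2 fold change of LPS against PBS for the 8 members in CTR and ELS mice, with 95% confidence intervals and filled points where the adjusted p was under 0.05. Cish, Socs2 and Socs3 lie between 6.26 and 8.24 in both conditions, and the other members lie between -0.74 and 2.15.

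The interaction of LPS and ELS was called for 0 of the 8 members and for 0% of all genes. By edgeR's quasi-likelihood test 0 members had an unadjusted p under 0.05, and DESeq2, edgeR's likelihood-ratio test and limma with the nest as random effect also called 0. The intervals of this difference were wide for the most responsive members, from -1.05 to 3.60 on the log2 scale for Cish and from -3.23 to 0.30 for Socs2, and narrower for Socs3, from -1.63 to 1.05, and Socs6, from -0.80 to 0.32.

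The summed level of the 4 astrocyte markers also differed between the treatments, with 298.6 to 503.2 CPM in CTR-PBS, 480.3 to 612.4 CPM in CTR-LPS, 312.9 to 452.5 CPM in ELS-PBS and 417 to 583.5 CPM in ELS-LPS mice. Slc1a3 made up nearly all of it, and of the other 3 markers Gfap reached at most 5.25 CPM, Aqp4 at most 1.81 CPM and Aldh1l1 at most 2.82 CPM in P200 mice, each with mice at 0 in every group. The sum over 8 microglia markers had medians of 76210 CPM in CTR-PBS and 65340 CPM in CTR-LPS mice, and 73760 and 68050 CPM in ELS mice. Neutrophil markers reached at most 0.240 CPM in PBS-injected and 4.83 CPM in LPS-injected P200 mice, with 2 of 5 at 0 in all mice of either LPS group. Of 3 tested monocyte markers, 1 was called higher with LPS in ELS mice and 0 in CTR mice, while the sum of the list was at 3.55 to 10.97 CPM in ELS-PBS and 0.878 to 8.13 CPM in ELS-LPS mice. The part of these markers in the SOCS levels was not tested.

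Between genes, levels were compared per kilobase (kb) of the canonical transcript. Socs6 had the highest median with PBS, 10.0 CPM per kb in CTR-PBS and 11.0 in ELS-PBS mice, followed by Socs3 with 7.38 and 9.35 CPM per kb, and their ranges over mice overlapped. Socs4 and Socs5 followed at 1.81 to 2.43 CPM per kb, with overlapping ranges. Socs2 was last in CTR-PBS mice (0.0469 CPM per kb), and Cish was last in ELS-PBS mice, where its median was 0. With LPS the order became Socs3 (485.2 CPM per kb in CTR-LPS and 723.6 in ELS-LPS mice), then Socs2 (23.6 and 28.9) and Cish (18.18 and 21.5), whose ranges overlapped, then Socs6 (7.71 and 7.17). Socs7 was last (1.00 and 0.832).

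The share of Socs3 in the summed level per kb of the family was between 11.3% and 46.7% in PBS-injected mice and between 78.3% and 95.5% in LPS-injected mice. The 8 genes together held 0.00812% to 0.0159% of all counts with PBS and 0.0756% to 0.425% with LPS. The order among the low members depended on the length used. Per kb of all merged exons, Socs2 had rank 5 by median in CTR-LPS mice, since its 52 annotated transcripts cover 15258 bases against 2540 in the canonical transcript, and Socs3 led the PBS groups in place of Socs6.

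**Figure D3:**
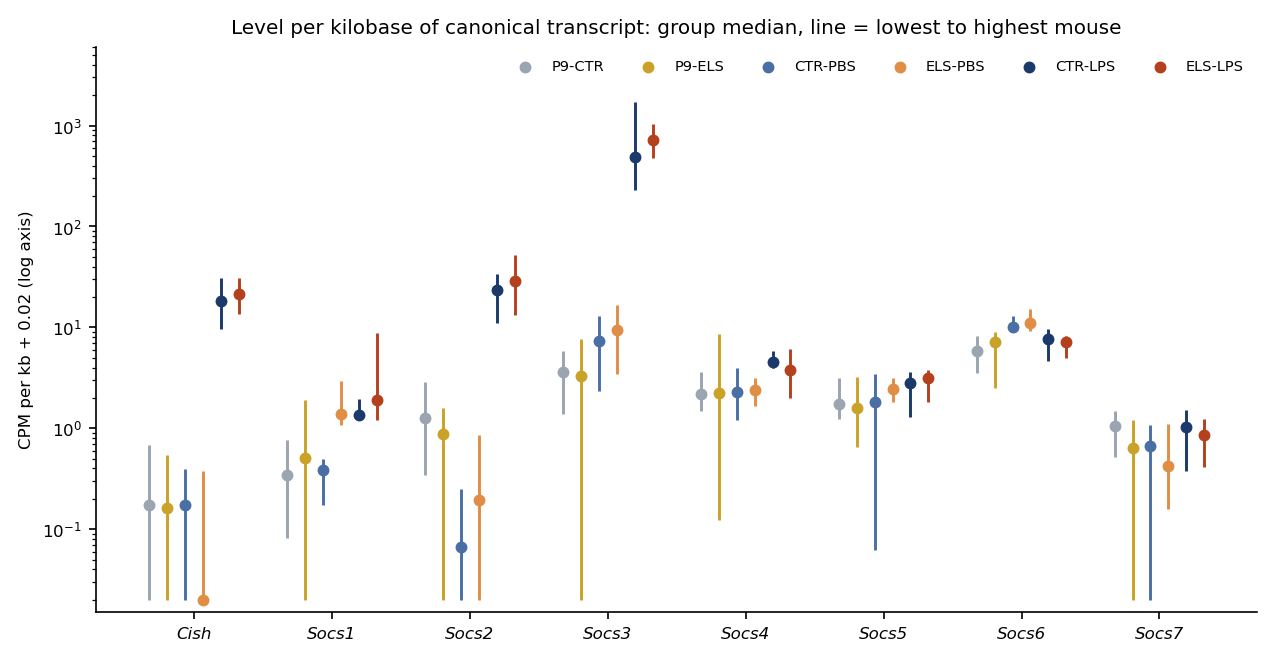
CPM per kb of canonical transcript plus 0.02 (log axis) for the 8 members in the 6 groups, as the median with a line from the lowest to the highest mouse. Socs3 stands at medians of 485.2 and 723.6 CPM per kb in the LPS groups, while Socs4, Socs5 and Socs7 have medians between 0.407 and 4.51 CPM per kb in every group.

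The study asked whether ELS alters microglia at once or in adulthood. At P9 no member passed the threshold between ELS and CTR mice (0 of 8 called, 0% of all genes called, and 0 members at an unadjusted p under 0.05 in edgeR's quasi-likelihood test, with 0 called by DESeq2, edgeR's likelihood-ratio test and limma as well). The log2 fold changes were between -0.66 (Socs7) and 0.73 (Socs1). Socs6, the member measured with the least spread, had 36.2 ± 7.73 CPM in P9-CTR (SD, n = 12) and 39.1 ± 10.9 CPM in P9-ELS mice (SD, n = 13), with a 95% confidence interval of the log2 difference from -0.16 to 0.39.

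In PBS-injected adults the members Socs1 and Socs2 had higher levels in ELS mice at an unadjusted p under 0.05, but 0 of 8 passed the adjusted threshold, beside 0.168% of all genes called. For Socs1 the groups did not overlap: the 7 CTR-PBS mice had 0.496 to 1.57 CPM and the 6 ELS-PBS mice 3.41 to 9.51 CPM. How many of all genes separate these groups was not counted. The log2 fold change was 2.30 ± 0.56 (SE, 95% confidence interval 1.18 to 3.42, p = 0.000138, adjusted p = 0.0571 in edgeR's quasi-likelihood test). It passed the threshold with DESeq2 (adjusted p = 0.00634), which called 178 genes in all against 28 by the quasi-likelihood test, and with edgeR's likelihood-ratio test (0.00625), which called 215. It also passed without the 3 libraries with few detected genes (0.0304), without P200_15.1_CTR_PBS (0.039) and without P200_17.2_ELS_PBS (0.0486). It did not pass under 8 other alternatives, limma with the nest as random effect and counts summed per nest among them. The 2 fold change limits, also among these 8, could not pass, since they only add a limit to the quasi-likelihood test. Nor did it pass in 11 of the fits that left out a single mouse. Over all alternatives tried the log2 fold change was between 2.05 and 2.43, and the adjusted p between 0.00625 and 0.166.

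Of 4 astrocyte markers, 1 was called between these groups, with the lower level after ELS, while Gfap was at 0 to 3.34 CPM in CTR-PBS and 0 to 0.362 CPM in ELS-PBS mice. The part of these markers in the Socs1 levels was not tested.

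The PBS-injected mice had at most 39 counts of Socs2 each, its medians were 0.119 CPM (CTR) and 0.449 CPM (ELS), and its groups overlapped (log2 fold change 1.75 ± 0.68, SE, adjusted p = 0.314). The log2 fold changes of the other 6 members lay between -1.05 (Cish) and 0.40 (Socs5). After LPS 0 of 8 members and 0% of all genes were called between ELS and CTR mice, with 0 members at an unadjusted p under 0.05 in edgeR's quasi-likelihood test and 0 called by DESeq2, limma or edgeR's likelihood-ratio test. Socs1 was nearest, with a mean of 10.4 ± 10.3 CPM in ELS-LPS (SD, n = 5) and 4.798 ± 0.996 CPM in CTR-LPS mice (SD, n = 7), a log2 fold change of 1.11 ± 0.56 (SE, adjusted p = 1) that was 0.28 without P200_20.1_ELS_LPS.

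**Figure D4:**
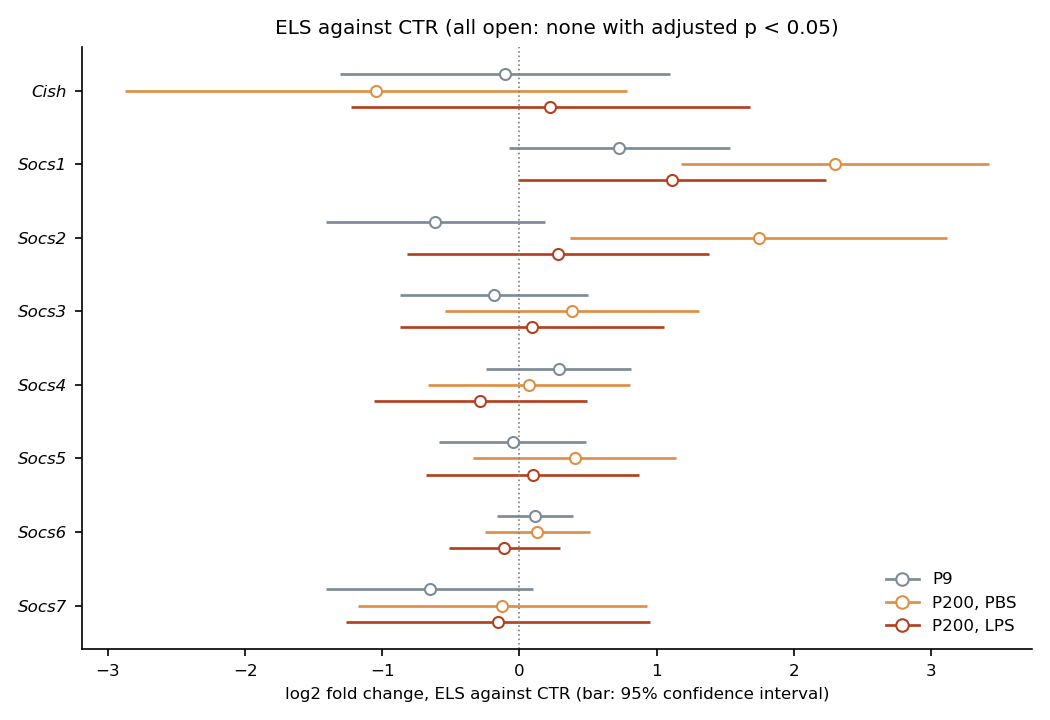
Log2 fold change of ELS against CTR for the 8 members at P9, in PBS-injected and in LPS-injected P200 mice, with 95% confidence intervals. No adjusted p was under 0.05, and the interval of Socs1 in PBS-injected mice runs from 1.18 to 3.42.

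From P9 to P200 (PBS), 3 of 8 members were called in CTR mice (Socs3 and Socs6 rose, Socs2 fell), beside 44.1% of all genes called in either direction. In ELS mice 4 of 8 were called (Socs1, Socs3 and Socs6 rose, Socs2 fell), beside 42.2% of all genes. These shares are near those of all genes. Socs6 was at 21.6, 35.1 and 50.0 CPM in P9-CTR mice (lowest, median and highest) and at 54.95, 61.1 and 78.2 CPM in CTR-PBS mice, without overlap, a log2 fold change of 0.82 ± 0.16 (SE, adjusted p = 3.58e-05). In ELS mice it was 0.83 ± 0.16 (SE, adjusted p = 4.32e-05), again without overlap.

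Socs2 fell by 3.74 ± 0.62 on the log2 scale in CTR mice (SE, adjusted p = 1.98e-06), from 0.821 to 7.32 CPM at P9 to at most 0.584 CPM at P200. In ELS mice it fell by 1.38 ± 0.55 (SE, adjusted p = 0.0366), with overlap, and this call was lost without any one of 6 mice (P9_9.3_ELS, P9_53.3_ELS, P200_2.1_ELS_PBS, P200_4.1_ELS_PBS, P200_11.1_ELS_PBS and P200_17.1_ELS_PBS), with adjusted p up to 0.0999. It was also lost with only the compared groups fitted (adjusted p = 0.177) and with limma (0.057). Socs3 rose by a log2 fold change of 0.99 ± 0.39 in CTR (SE, adjusted p = 0.035) and 1.56 ± 0.40 in ELS mice (SE, adjusted p = 0.00116), with overlap in both. The CTR call was lost without P9_58.2_CTR, P200_5.1_CTR_PBS, P200_5.2_CTR_PBS or P200_18.1_CTR_PBS (adjusted p up to 0.115).

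Socs1 had medians of 1.07 and 1.19 CPM in P9-CTR and CTR-PBS mice (log2 fold change -0.05 ± 0.47, SE, adjusted p = 0.943) but 1.60 and 4.50 CPM in P9-ELS and ELS-PBS mice (1.52 ± 0.46, SE, adjusted p = 0.00619). The difference between these age changes was 1.57 ± 0.67 (SE, log2, p = 0.0238, adjusted p = 0.417) for Socs1 and 2.36 ± 0.79 (SE, p = 0.00432, adjusted p = 0.293) for Socs2 in edgeR's quasi-likelihood test, so the interaction of age and ELS was called for 0 of 8 members, beside 0.0299% of all genes. DESeq2, edgeR's likelihood-ratio test and limma called 0 as well.

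The summed microglia markers were at 32060 to 61820 CPM at P9, below each P200 mouse with PBS (71040 to 77120 CPM), and markers of other cells moved with age too. The sum of 5 border macrophage markers was 466.7 to 916.8 CPM at P9, nearly all of it Mrc1, and 2.79 to 10.5 CPM in PBS-injected P200 mice, and that of 4 cell cycle genes was 355.4 to 1480 CPM at P9 and 2.49 to 18.11 CPM in the same P200 mice. Neuron markers summed to 28.9 to 153.9 CPM at P9 and 2.49 to 11.7 CPM in PBS-injected P200 mice. Their part in the age differences of the SOCS genes was not tested.

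The other genes of the pathway were followed as 6 lists with 79 genes, of which 61 were tested. With LPS, 23 of them rose and 2 fell in CTR mice, and 17 rose and 1 fell in ELS mice, beside the 8.73% and 7.4% of all genes called higher. The pathway genes named, other than the 3 with the largest fold change in each condition at a mean log2 CPM of at least 1 (Il4ra, Il2rg and Osm in CTR, Il4ra, Il27 and Il2rg in ELS mice), were chosen after their values were seen.

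Of 20 listed ligands that signal through JAKs, 6 passed the filter, and 4 of these rose in both conditions (Ebi3, Il12b, Il27 and Osm). Il12b passed the filter only through LPS-injected mice, so its rise was fixed by the filter, here and in the total above. Osm, which encodes the gp130 ligand oncostatin M, had a log2 fold change of 2.49 ± 0.24 (SE, adjusted p = 7.94e-12) in CTR mice and 2.57 ± 0.27 (SE, adjusted p = 1.03e-10) in ELS mice. Il27, a subunit of interleukin 27, had one of 2.86 ± 0.50 (SE, adjusted p = 2.73e-05) in ELS mice. Il12b, the shared subunit of interleukins 12 and 23, was at 0 in 5 of 7 CTR-PBS mice and at 17.4 to 96.3 CPM in CTR-LPS mice. Il6, another gp130 ligand, was at 11.09 to 22.3 CPM in CTR-PBS and 28.4 to 62.8 CPM in CTR-LPS mice, without overlap, but passed the threshold in neither condition (log2 fold change 1.29 ± 0.58, SE, adjusted p = 0.133 in CTR mice).

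Of 26 tested receptor chains, 9 rose and 2 fell in CTR mice, and 7 rose and 1 fell in ELS mice. The chain Osmr was at 0 in all 7 CTR-PBS mice and at most 0.0282 CPM in ELS-PBS mice. Like Il12b it passed the filter only through LPS-injected mice, so any rise of Osmr was fixed by the filter, here and in the total of all lists. Il4ra, the interleukin 4 receptor chain, had the largest change among the listed genes with a mean log2 CPM of at least 1, from 66.6 to 155 CPM in CTR-PBS to 370.1 to 3495 CPM in CTR-LPS mice (log2 fold change 3.43 ± 0.46, SE, adjusted p = 8.13e-08) and 2.89 ± 0.50 (SE, adjusted p = 1.85e-05) in ELS mice. Il2rg, the common gamma chain, had 2.62 ± 0.28 (SE, adjusted p = 1.83e-10) in CTR and 2.75 ± 0.31 (SE, adjusted p = 1.34e-09) in ELS mice. In PBS-injected mice 1 of the 61 tested genes, the receptor chain Il27ra, was called between ELS and CTR, beside 0.168% of all genes (adjusted p = 0.0466 in edgeR's quasi-likelihood test). It was close to the detection limit, at 0 in all 7 CTR-PBS mice. In ELS-PBS mice it was at 0 to 3.33 CPM, with a mean of 0.688 CPM, a median of 0.170 CPM and 2 mice at 0. With limma, or with only the compared groups fitted, 0 of all genes were called there.

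Of 4 JAK kinases, 2 rose in CTR mice (Jak1, 0.72 ± 0.16, and Jak3, 2.13 ± 0.61, log2 ± SE) and 0 were called in ELS mice (Jak1, 0.50 ± 0.18, and Jak3, 0.72 ± 0.66). Jak3 was at 0 to 15.7 CPM (median 9.64) in CTR-PBS and 11.73 to 130.1 CPM (median 15.45) in CTR-LPS mice, with overlap. Its medians were 20.75 CPM in ELS-PBS and 28.55 CPM in ELS-LPS mice. Among the STAT factors, Stat2 and Stat3 rose in both conditions. Stat3, which acts downstream of gp130, had a median of 195.2 CPM in CTR-PBS and 680.2 CPM in CTR-LPS mice, and its log2 fold change was 2.00 ± 0.23 (SE, adjusted p = 2.39e-09) in CTR and 1.78 ± 0.26 (SE, adjusted p = 6.17e-07) in ELS mice. The interaction of LPS and ELS was called for 0 of the 61 tested genes in edgeR's quasi-likelihood test.

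Among 11 other inhibitors, the tyrosine phosphatase genes Ptpn1 and Ptpn2, whose products dephosphorylate JAKs and STATs, rose in both conditions. Ptpn1 had a log2 fold change of 2.02 ± 0.17 (SE, adjusted p = 1.27e-13) in CTR and 2.05 ± 0.19 (SE, adjusted p = 3.22e-12) in ELS mice. Ptprc was called in CTR mice and Usp18 in ELS mice. Of 8 partners of the SOCS box ubiquitin ligase, Ube2f rose in both conditions (0.98 ± 0.17 and 1.27 ± 0.19, log2 ± SE) and Arih2 in CTR mice (0.89 ± 0.29), and none fell.

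**Figure D5:**
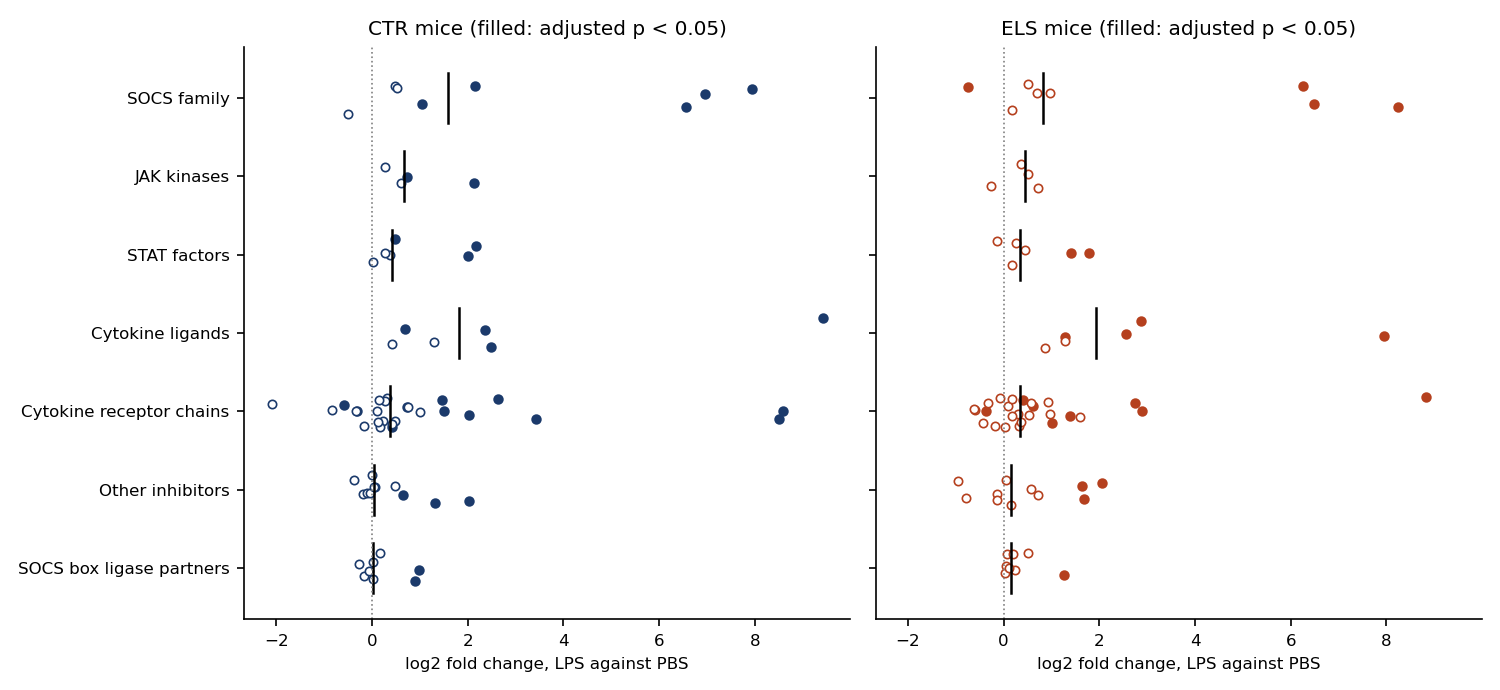
Log2 fold change of LPS against PBS for the 8 SOCS genes and the 61 tested pathway genes by list, in CTR (left) and ELS mice (right), with filled points where the adjusted p was under 0.05 and a black bar at each list's median. The medians of the SOCS family, 1.60 and 0.83, stand beside those of the cytokine ligands, 1.82 and 1.93, and of the other inhibitors, 0.03 and 0.15. The points include Il12b and Osmr, which passed the filter only through LPS-injected mice.

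The genes nearest to each member in their profile over the 6 group means were found among 11053 tested genes with a mean log2 CPM of at least 1, by the root mean square difference of the centred log2 means. For Socs3 they were Tnf (0.32), Egr1 (0.42) and Tnfsf9 (0.51). For Cish they were Fos (0.71), Cxcl10 (0.74) and Ier3 (0.78). For Socs2 they were Art3 (0.42), Cd300lf (0.57) and Pim1 (0.58). Tnf had medians of 2.56 CPM in CTR-PBS and 225.3 CPM in CTR-LPS mice, and Pim1 of 0.713 and 66.3 CPM.

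For Socs1 the nearest genes were Il17ra (0.39), Ddit4 (0.40) and Tiparp (0.42). Tiparp had medians of 15.3 CPM in CTR-PBS, 32.4 in ELS-PBS, 61.1 in CTR-LPS and 71.2 in ELS-LPS mice. As for Socs1, the ELS-PBS median lay above that of CTR-PBS, but Tiparp was picked for its similar profile, so this adds no support. For Socs4 they were Ago3 (0.05), Tbc1d14 (0.07) and Tut7 (0.08), for Socs5 Ctdp1 (0.03), Cog1 (0.07) and Dhx33 (0.08), and for Socs7 Neurl4 (0.14) and Brpf3 (0.15). The 6 means of Socs6 spanned less than 1 on the log2 scale, and no neighbours were sought for it.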

How the data were processed

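Per the submitters' processing notes, the authors used cutadapt 2.10, STAR and HTSeq 0.11.0 with the GRCm39 build. The deposited values are raw counts per gene, without normalization. The annotation release and strand setting are not given in the sources used here. The number before the point of a mouse title was taken as the nest, and mice that share a nest count as separate replicates in the p-values.

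Library sizes were normalized with trimmed means of M-values in edgeR 4.0.16 under R 4.3.3. The filter kept 16696 genes that reached 1 CPM in over 2 of 50 mice. Means of 6 groups were fitted to all mice. Contrasts came from the quasi-likelihood F test of edgeR, adjusted by Benjamini-Hochberg over all 16696 genes (threshold 0.05). On simulated data for LPS against PBS in CTR mice with 16696 genes, 164 of 200 genes (82%) with a true log2 fold change of 2 were recovered, with 8 false calls. Error terms are SDs over mice or SEs of the fit. An upper limit for a count of 0 was 3 counts, for counting error only.

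The 8 members, the pathway lists and the marker lists were chosen with earlier results of these data known. The text names all members, the 3 pathway genes with the largest change among those called with a mean log2 CPM of at least 1 in each LPS comparison, and the 3 nearest genes of each member whose group means spanned more than 1 on the log2 scale. Some genes that these rules name are not reported here. The wide motif window was chosen after the levels and a first search of the 250 bases before each start were seen. Positions, canonical transcripts and sequence came from GENCODE vM39 on GRCm39, with Python 3.11.15.

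Alternatives were DESeq2 1.42.0, edgeR's likelihood-ratio test, other size factors and filters, fits of the compared groups alone, a nest block, limma 3.58.1 with the nest as random effect, counts summed per nest, 2 fold change limits and leaving out mice.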

Additional observations from a re-analysis of the deposited data

Results flagged for a closer look

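In 2 of 32 combinations of a member and a P200 group (4 groups of 5 to 7 mice), 1 mouse lay far from the others, where chance gives about 1 in 20. Socs1 was at 28.68 CPM in P200_20.1_ELS_LPS, and the next ELS-LPS mouse was at 8.042 CPM. Cish was at 1.297 CPM in P200_2.1_ELS_PBS, and the other 5 ELS-PBS mice had no count.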

How the results depend on the processing

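The number of members called changed by more than 1.5 times in 2 comparisons. Between ELS-PBS and CTR-PBS mice it went from 0 to 1 (Socs1) with edgeR's likelihood-ratio test, with DESeq2 and without the 3 libraries with the fewest detected genes, and was 0 to 1 when single mice were left out. The first 2 of these called 215 and 178 of all genes, against 28. From P9 to P200 in CTR mice it went from 3 to 1 (Socs2) when an absolute log2 fold change above 1 was required, since those of Socs3 and Socs6 were 0.99 and 0.82. With single mice left out it was 2 to 3 there, 3 to 4 for age in ELS, 4 to 5 for LPS in CTR, 4 for LPS in ELS mice, and 0 for the other comparisons.

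With the nest as replicate block the number was 6 for LPS in CTR mice (Socs6 added, adjusted p = 0.0417), 4 in ELS mice and 0 for the interaction of LPS and ELS. Nest numbers were not used to pair mice in the main test. The deviations of PBS and LPS mice of a nest correlated between -0.04 and 0.08 over 10 nests, and 0 nests exceeded 0.1. Mice of different nests were not compared in this way, so these values cannot decide whether nests pair the mice. The limma fit estimated a correlation of 0.078 within nests. No fold change of a member called in the main test changed direction under any alternative tried. Nor did some uncalled ones of Socs1, Socs2 and Socs6 that were followed. The direction of the other uncalled fold changes was not followed. Socs6 passed the threshold for LPS in CTR mice under 6 of 12 alternatives other than leaving out single mice. The 2 fold change limits among the 12 could not pass, since they only add a limit to the main test. Socs3 lost its age call in CTR mice with limma (adjusted p = 0.169) and with counts summed per nest (0.13). Low counts limit Cish, Socs1 and Socs2 in PBS-injected mice.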
